A study of Canis lupus familiaris with 59 samples.

Results

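A group of 6 genes of the dog adrenal gland was followed over 10 normal adrenal cortices and 49 cortisol-secreting adrenocortical tumours. They are known here by their Ensembl identifiers, ENSCAFG00000000561, ENSCAFG00000031174, ENSCAFG00000029005, ENSCAFG00000000426, ENSCAFG00000032615 and ENSCAFG00000012011. The table pairs no identifier with a symbol, and 0 of its 28570 identifiers matched one in the reference table at hand, so what these genes encode is not stated here. They were chosen from the measured values. Of 13004 genes with enough counts to test, 66 were called lower in tumours (0.508%; edgeR's quasi-likelihood test, Benjamini-Hochberg adjusted p under 0.05) and 11 higher. Of the 66, 16 had an SD of 1.5 or more over the normals on the scale of log2 CPM (CPM, a gene's counts scaled to the same library size), and the 6 genes had the lowest p-values among those 16. The difference from tumours and the spread over normals are therefore given as descriptions, and nothing is tested with them. Just inside the limit on spread lay ENSCAFG00000019190, which was not chosen, with an SD of 1.52, and ENSCAFG00000029005 with 1.53. The nearest genes outside it had 1.43 and 1.40.

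The adrenal cortex makes steroid hormones in layers. The outer zona glomerulosa makes aldosterone, the zona fasciculata makes cortisol, and the inner zona reticularis borders the medulla, which makes adrenaline and noradrenaline. A sample of cortex can hold these layers in different amounts, together with capsule, vessels, fat or medulla. In RNA from whole samples, fewer cells of a type and less RNA per cell cannot be told apart. The question followed here is whether the 6 genes were high in the same normals and the same tumours.

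All samples came from dogs. The labels call the normals healthy and the tumours cortisol-secreting, and give no age, sex, breed, subtype, zone or dissection. The extraction notes mention trypsin-treated cells, while the sample names are those of tissues. RNA was sequenced with CEL-Seq2, in which transcripts are read at their 3′ end and carry a short random tag, the unique molecular identifier (UMI), that lets copies of one molecule be counted once. Libraries are named by the number in their title. Totals ran from 1007920 counts, in tumour 2, to 5449077. Normal 3, which stands apart in what follows, had 1308798 counts. Its mean correlation with the other normals over all genes tested was 0.88, within the range of 0.84 to 0.90 over the 10 normals. Markers of the zones, the medulla and other tissues could not be looked up without symbols, so the tissue labels were not checked against markers, and the part of tissue composition in any result below was not tested.

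Normal 3 was the library in which 5 of the 6 genes had their highest level of all 59. ENSCAFG00000000561 measured 350 CPM in normal 3, against 4.65 to 14.4 CPM in the other 9 normals. Its tumour values ran from 1.63 CPM through a median of 6.17 to 70.0 CPM in tumour 35. The single highest normal thus exceeded the next by 24.2-fold, while the other normals and the tumours overlapped. ENSCAFG00000031174 measured 421 CPM in normal 3 and 1.71 to 10.7 CPM in the other normals, a gap of 39.3-fold. In tumours it ran from 0, in 2 libraries, through 2.93 to 63.1 CPM in tumour 2. Normal 3 held 89.0% of this gene's CPM summed over the 10 normals.

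ENSCAFG00000029005 was measured at 3069 CPM in normal 3, with the other normals between 69.6 and 235 CPM. Tumours ran from 42.3 through 95.9 to 984 CPM, again highest in tumour 35. The next tumour, tumour 23, stood at 269 CPM, so normal 3 and tumour 35 were the only libraries at or above 4 times the tumour median. ENSCAFG00000000426 reached 3295 CPM in normal 3 and 461 CPM in normal 2, with the other normals from 56.6 to 134 CPM. Its tumour median of 91.3 CPM was close to the normal median of 93.1 CPM, and the tumours ran from 24.7 to 572 CPM, highest in tumour 29. For this gene 24 of the 49 tumours lay above the normal median. ENSCAFG00000032615 measured 15512 CPM in normal 3, 1673 CPM in normal 4 and 149 to 598 CPM in the other normals. In tumours it ran from 4.16 through 113 to 3444 CPM in tumour 35, with 2634 CPM in tumour 2 and at most 550 CPM elsewhere. Its value in normal 3 rests on 17299 corrected counts from 4036 distinct UMIs of 4096 possible, so it depends on the correction for UMI collisions more than any other value given here.

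ENSCAFG00000012011 was high in other libraries. It measured 500 CPM in normal 10, 215 CPM in normal 1, 42.3 CPM in normal 8 and 19.3 CPM in normal 4. The remaining 6 normals lay between 0.98 and 8.97 CPM, and normal 3, at 8.97 CPM, was 1.19 times the normal median of 7.54 CPM. Tumours ran from 0, in 9 libraries, through 1.10 CPM to 138 CPM in tumour 48, followed by 72.7 CPM in tumour 12 and 39.1 CPM in tumour 6. Normals 10 and 1 were above all tumours. A count of 0 allows up to 3 counts, which are worth 0.573 to 4.11 CPM depending on the library, so the lower tumour values of this gene cannot be ordered.

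**Figure D1:**
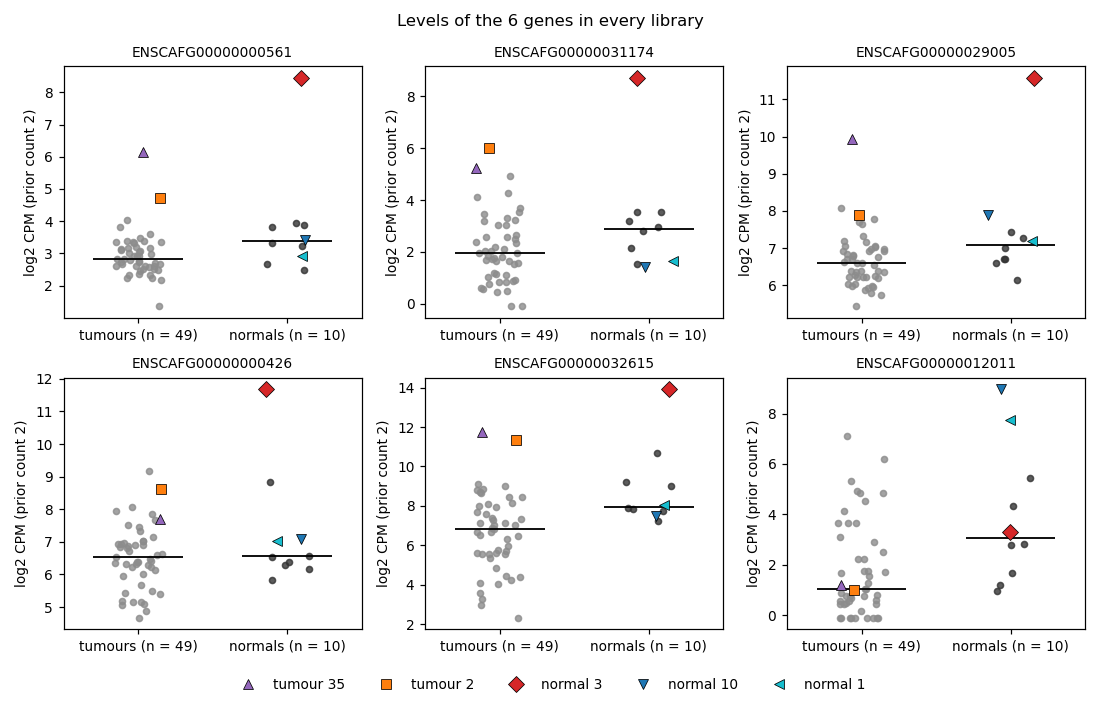
Levels of the 6 genes as log2 CPM (vertical axis, prior count 2) in each tumour (left, n = 49) and each normal (right, n = 10), with a line at each group's median and horizontal scatter only to separate points. Normal 3 (red diamond) is the highest point for 5 genes and sits near the normal median for ENSCAFG00000012011, which is highest in normals 10 and 1.

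The spread over normals that marks these genes came largely from these few libraries. Without normal 3 the SD of log2 CPM over normals was 0.53 instead of 1.70 for ENSCAFG00000000561 and 0.52 instead of 1.53 for ENSCAFG00000029005. It was 0.86 instead of 2.12 for ENSCAFG00000031174, 0.88 instead of 1.77 for ENSCAFG00000000426 and 1.09 instead of 2.04 for ENSCAFG00000032615. Over all genes tested, the median SD was 0.55 among normals. None of the 5 genes would then have reached the limit of 1.5. For ENSCAFG00000012011 the SD of 2.72 was 2.19 without its highest library, normal 10.

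The difference in means between tumours and normals, on which the genes were chosen, had largely the same source. Between medians, tumours minus normals in log2 CPM was −1.14 for ENSCAFG00000032615, where 10 of 10 normals lay above the tumour median. It was −2.04 for ENSCAFG00000012011, with 9 of 10 above, though its tumour values were low. For the others it was −0.03 to −0.93, with 6 to 8 above. The median over all genes was 0.02. The log2 fold change of tumours against normals was −2.34 ± 0.38 (SE) for ENSCAFG00000000561, −2.86 ± 0.56 for ENSCAFG00000031174 and −1.77 ± 0.35 for ENSCAFG00000029005. It was −1.93 ± 0.39 for ENSCAFG00000000426, −2.85 ± 0.62 for ENSCAFG00000032615 and −3.10 ± 0.68 for ENSCAFG00000012011, with edgeR adjusted p-values between 0.0011 and 0.0191 for the 6. Without normal 3 the first 5 values were −0.17, 0.20, −0.09, −0.17 and −0.73 in the same order, with adjusted p-values of 0.70 or more. The value of ENSCAFG00000031174 turned positive. Of the 6 genes only ENSCAFG00000012011 was then called lower (−3.23, adjusted p = 0.023), among 0.272% of the genes tested. Without normal 10 instead, ENSCAFG00000012011 was at −1.86 (adjusted p = 0.27, with 0.396% of genes called lower), and without normals 10 and 1 at −0.28 (adjusted p = 0.94, with 0.428%). DESeq2 by default replaces counts that lie far from the rest of their group. It called 0 of the 6, against 91 lower (0.987%) and 29 higher of the 9222 genes to which it gave an adjusted p. ENSCAFG00000031174 was given none and so could not be called. It had replaced the count of normal 3 in all 5 genes, for example 17299 by 176 in ENSCAFG00000032615. ENSCAFG00000012011 had no count replaced and kept its fold change, at −3.09 with an adjusted p of 0.0501. With distinct UMIs in place of corrected counts, ENSCAFG00000032615 was at −1.75 and no longer called (edgeR adjusted p = 0.109). Scaling by library totals in place of trimmed means kept the 6 calls, moved the median of all genes from 0.02 to 0.18, and turned 66 lower and 11 higher genes into 17 (0.131%) and 71.

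Normal 3 held the 5 genes among its most raised transcripts. Against the median of the other 9 normals, ENSCAFG00000032615 was 6.02 higher in log2 CPM, which ranked 6th of 13004 genes in that library. ENSCAFG00000031174 was 5.92 higher (7th), ENSCAFG00000000426 5.16 (11th), ENSCAFG00000000561 5.12 (12th) and ENSCAFG00000029005 4.59 (21st). In all, 73 genes (0.561% of those tested) were at least 8-fold higher in normal 3, so the 5 were part of a larger set. ENSCAFG00000012011 was 0.49 higher there and ranked 2739th. In normal 10, by contrast, ENSCAFG00000012011 ranked first of all genes, 6.15 above the other normals, and in normal 1 it ranked 5th, at 4.94. Those libraries had 34 (0.261%) and 28 (0.215%) genes at least 8-fold higher, of which 10 were shared. None of the other 5 genes was among the 34 or the 28.

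The same question was put to the tumours. Their mean, and through the p-value their spread gene by gene, had entered the choice, but not which tumours were high. A library was counted as high in a gene where its log2 CPM was at least 2, a factor of 4, above the median of the 49 tumours. By this count 31 tumours were high in 0 of the 6 genes and 13 in 1. Another 3 tumours were high in 2 genes: tumours 16 and 48 in ENSCAFG00000032615 and ENSCAFG00000012011, and tumour 29 in ENSCAFG00000000426 and ENSCAFG00000012011. Tumour 2 was high in ENSCAFG00000031174, ENSCAFG00000000426 and ENSCAFG00000032615. Tumour 35 was high in ENSCAFG00000000561, ENSCAFG00000031174, ENSCAFG00000029005 and ENSCAFG00000032615. Among normals, normal 3 passed the limit in all 6, normal 4 in 2 (ENSCAFG00000032615 and ENSCAFG00000012011), 6 normals in 1 and 2 normals in 0. Of the 59 libraries, ENSCAFG00000000561 and ENSCAFG00000029005 were high in 2 each, ENSCAFG00000000426 in 4, ENSCAFG00000031174 in 6 and ENSCAFG00000032615 in 9. ENSCAFG00000012011 passed the limit in 17, but its tumour median of 1.10 CPM lay below the 1.38 CPM that 3 counts are worth in the median library. Its count is therefore not comparable with those of the other genes, and normal 3 passed that low limit at a level near the normal median.

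**Figure D2:**
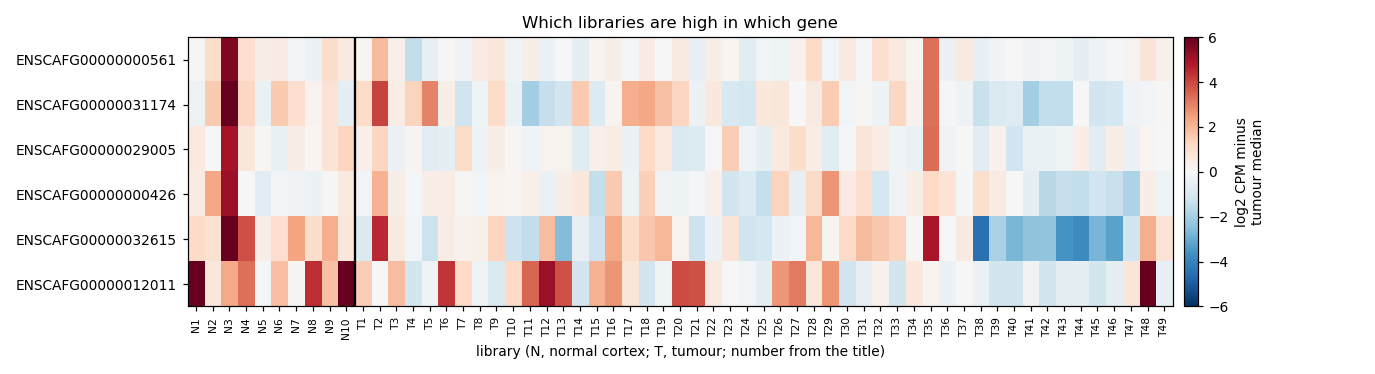
Each row is a gene and each column a library (N, normal; T, tumour; numbered as titled), coloured by log2 CPM minus the median of the 49 tumours, with colours limited to 6 in either direction. Normal 3 is darkest in the first 5 rows, tumours 35 and 2 are high in 4 and 3 of these, and the bottom row, ENSCAFG00000012011, is darkest in normals 10 and 1 and tumour 48, against a low tumour median.

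Tumours 35 and 2 shared the 5 genes with normal 3 in part and in different proportions. In tumour 35 ENSCAFG00000032615 ranked 7th of all genes, 4.99 in log2 CPM above the other tumours. ENSCAFG00000031174, ENSCAFG00000029005 and ENSCAFG00000000561 ranked 29th, 30th and 32nd there, each 3.32 to 3.36 higher. ENSCAFG00000000426 was 1.22 higher in tumour 35 and ranked 341st. In tumour 2 ENSCAFG00000032615 ranked 5th (4.60) and ENSCAFG00000031174 ranked 9th (4.11), while ENSCAFG00000000426 was at 2.13, ENSCAFG00000000561 at 1.88 and ENSCAFG00000029005 at 1.29. Thus ENSCAFG00000000426, the least raised of the 5 in tumour 35, was above 2 of them in tumour 2. ENSCAFG00000012011 was at 0.20 in tumour 35 and −0.04 in tumour 2. It stood out in other tumours, ranking 3rd of all genes in tumour 48 (6.12) and 4th in tumour 12 (5.20), where 0.361% and 0.146% of genes were at least 8-fold higher than in the other tumours. Tumour 2 had the lowest total and tumour 35 a total above the median (2579652 counts). Over the 49 tumours, the 6 genes had r between −0.16 and 0.05 with the log2 total, and 0 of 6 had an adjusted p under 0.05 (permutation tests).

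The proportions were measured on the linear scale. For each gene the CPM of a tumour above the median of the other tumours was divided by the CPM of normal 3 above the median of the other normals. In tumour 35 this share was 30.2% (interval 27.5 to 33.1) for ENSCAFG00000029005, 21.8% (19.7 to 24.2) for ENSCAFG00000032615 and 18.7% (14.4 to 24.3) for ENSCAFG00000000561. It was 8.27% (6.08 to 11.2) for ENSCAFG00000031174 and 3.73% (3.08 to 4.49) for ENSCAFG00000000426. The shares thus spanned 8.08-fold, and the intervals of the highest and the lowest did not overlap. In tumour 2 the order was another: 16.5% (14.8 to 18.5) for ENSCAFG00000032615, 14.6% (10.0 to 21.0) for ENSCAFG00000031174 and 9.49% (7.89 to 11.3) for ENSCAFG00000000426. ENSCAFG00000000561 was at 5.60% (2.66 to 10.3) and ENSCAFG00000029005 at 4.72% (3.53 to 6.11), a span of 3.51-fold. The intervals join exact 95% binomial (Clopper-Pearson) limits on the distinct UMIs of both libraries, carried through the collision correction, and cover counting error only. They take the correction as right, which matters most for ENSCAFG00000032615, where normal 3 had 4036 and tumour 35 had 3743 of the 4096 possible UMIs.

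**Figure D3:**
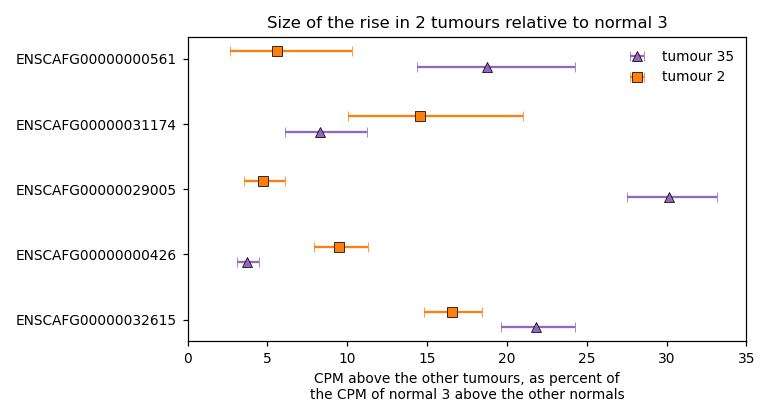
For the 5 genes highest in normal 3, the CPM of tumour 35 (triangles) and tumour 2 (squares) above the other tumours, as a percent of the CPM of normal 3 above the other normals (horizontal axis); bars join exact 95% binomial limits on the distinct UMIs of both libraries. The 5 shares of a tumour are unequal, from 3.73% to 30.2% in tumour 35 and from 4.72% to 16.5% in tumour 2.

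The larger set of normal 3 overlapped with those tumours in part. Of the 73 genes at least 8-fold higher in normal 3, 16 were also at least 8-fold higher in tumour 35 than in the other tumours, which is 21.9% of the 73 and 37.2% of the 43 such genes of tumour 35 (0.331% of those tested). Tumour 2 shared 12 of them (16.4% of the 73, 25.5% of its own 47, which are 0.361% of those tested), tumour 29 shared 14 (19.2% and 11.7%) and tumour 16 shared 12 (16.4% and 23.5%). The median tumour shared 2. Among the shared genes, 4 in tumour 35 and 2 in tumour 2 were of the 6 genes themselves. High shares of a library's own genes occurred elsewhere too, on smaller sets. Normal 6 shared 7 of its 18 (38.9%) and tumour 34 shared 3 of its 9 (33.3%).

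Whether the genes varied together over the 49 tumours was then tested, with the log2 CPM of one gene as a covariate for the counts of all others. Of the 30 ordered pairs of the 6 genes, 15 were called, all with a positive slope (edgeR's quasi-likelihood test, adjusted over the 13003 other genes of each fit). These 15 were among the 20 ordered pairs of the 5 genes, and 0 of the 10 pairs with ENSCAFG00000012011 were called. Without adjustment, 20 of the 30 pairs had p under 0.05, but the share of all genes at that limit was not counted. The share of all genes called positive was 0.531% with ENSCAFG00000000561, 1.45% with ENSCAFG00000031174, 0.738% with ENSCAFG00000029005, 3.37% with ENSCAFG00000000426, 1.55% with ENSCAFG00000032615 and 2.05% with ENSCAFG00000012011. Among the 6 genes, with both directions counted, ENSCAFG00000032615 was in the most called pairs. With it as covariate, ENSCAFG00000000561 rose by 0.33 ± 0.04 (SE) log2 per log2 unit (adjusted p = 4.84e-09) and ENSCAFG00000029005 by 0.25 ± 0.04 (adjusted p = 4.86e-05). ENSCAFG00000031174 rose by 0.51 ± 0.09 (adjusted p = 0.000214) and ENSCAFG00000000426 by 0.21 ± 0.06 (adjusted p = 0.0467).

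Of the 15 calls, 14 were not made without tumours 2 and 35. These 2 tumours were picked for being high in several of the genes, so leaving them out also narrowed the range of the covariates. In the remaining 47 tumours 1 of the 30 ordered pairs was called. An unadjusted p under 0.05 was found for 11, again without a count of all genes at that limit. The one called was ENSCAFG00000000561 with ENSCAFG00000032615 as covariate, with a slope of 0.18 ± 0.04 (adjusted p = 0.0129), where 0.461% of all genes were called positive. In these 47 tumours the share was 0.00769% with ENSCAFG00000000561, 0.784% with ENSCAFG00000031174, 0.869% with ENSCAFG00000029005 and 2.8% with ENSCAFG00000000426. Fewer genes were thus called over the whole table too, except with ENSCAFG00000029005, which had 0.738% in 49 tumours. All 15 slopes stayed positive, at 0.585% to 94.2% of their size in 49 tumours, with a median of 54.4%. The slope of ENSCAFG00000000426 on ENSCAFG00000031174 was 0.34 instead of 0.37 (adjusted p = 0.0981) and that of ENSCAFG00000032615 on ENSCAFG00000000561 was 1.29 instead of 1.52 (adjusted p = 0.385). That of ENSCAFG00000029005 on ENSCAFG00000031174 was 0.0017 instead of 0.30. Thus some relations kept their size without a call and others lost it. Without tumours 27 to 36, which include tumour 35, 7 pairs were called, and 11 without tumours 37 to 46, all of them among the 15. With both runs left out, 5 were called, and the median slope of the 15 was 78.5% of its size in 49 tumours. The share of all genes called positive with the 5 genes as covariates changed too. It was 0.531% to 3.37% in 49 tumours, 0.1% to 1.5% without tumours 27 to 36 and 0.0615% to 1.98% without both runs. Without tumours 37 to 46 it was 0.292% to 4.36%.

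Correlations over the 49 tumours gave the sizes, for a family of 21 relations (15 pairs of genes and 6 with the log2 total; 100000 permutations, two-sided). ENSCAFG00000000561 and ENSCAFG00000032615 had r = 0.67 and rho = 0.63 (permutation p = 1e-05 for both, the smallest these permutations can give; adjusted p = 0.000105 and 0.00021). Without the 2 farthest tumours, 35 and 2, r was 0.52. ENSCAFG00000031174 and ENSCAFG00000032615 had r = 0.61 and rho = 0.53 (permutation p = 1e-05 and 0.00014, adjusted 0.000105 and 0.00147; r = 0.47 without tumours 2 and 35). In the remaining 47 tumours the adjusted permutation p-values for r were 0.0042 and 0.0104. The permutations ran over all tumours and not within the runs described below, which differed in level. Within each run, without tumours 35 and 2, the second pair had a lower r, as given below. The edgeR fits in the 47 tumours did not call that pair in either direction (adjusted p = 0.247 and 0.124). ENSCAFG00000000561 and ENSCAFG00000029005 had r = 0.60 but rho = 0.33 (permutation p = 0.00023 and 0.0211, adjusted 0.00121 and 0.0737), and r = 0.21 without tumours 35 and 2, so the relation rested on those libraries. The same was so for ENSCAFG00000000561 and ENSCAFG00000031174, with r = 0.41 and rho = 0.29 (permutation p = 0.00394 and 0.0443, adjusted 0.0118 and 0.133) and r = 0.07 without them. ENSCAFG00000029005 and ENSCAFG00000032615 had r = 0.55 and rho = 0.46 (permutation p = 6e-05 and 0.00092, adjusted 0.00042 and 0.00644). Leaving out its 2 farthest tumours, 35 and 23, gave r = 0.45.

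Of the 15 pairs, 7 had an adjusted p under 0.05 by r and 5 by rho, and 5 and 3 in the 47 tumours without 2 and 35. The 3 with an adjusted p under 0.05 by both measures in the 47 tumours all included ENSCAFG00000032615. Pairs with ENSCAFG00000012011 had r between −0.12 and 0.17. For ENSCAFG00000031174 and ENSCAFG00000012011 r was −0.12 over 49 tumours but −0.38 without tumours 37 to 46 and −0.46 in the 29 tumours outside both runs, with or without tumour 2, given as a description. The median r was 0.49 over the 10 pairs of the 5 genes and 0.29 without tumours 2 and 35, against −0.005 over all pairs of genes tested.

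**Figure D4:**
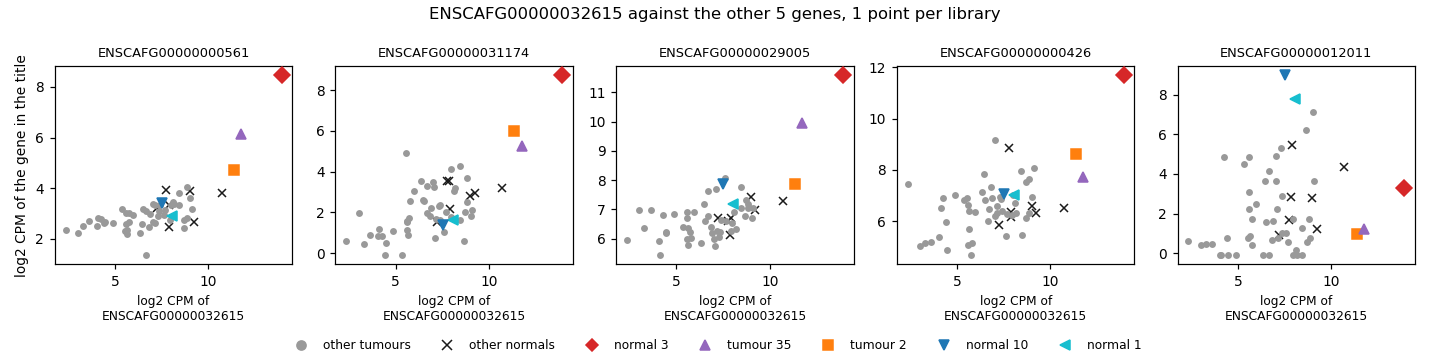
The log2 CPM of ENSCAFG00000032615 (horizontal axis) against that of each other gene (vertical axis, 1 panel per gene), with 1 point per library. Normal 3 lies alone at the upper right of the first 4 panels, and tumours 35 and 2 are the next highest in ENSCAFG00000032615. In ENSCAFG00000000426 tumour 2 ranks 4th and tumour 35 ranks 8th of the 59 libraries, and in ENSCAFG00000029005 tumour 2 ranks 5th. Normals 10 and 1 are the top points of the last panel, at a middling level of ENSCAFG00000032615.

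The labels name no batch. Runs of consecutive tumour numbers differed in level, so values within runs are given as descriptions. Tumours 37 to 46 had lower medians than tumours 27 to 36 for all 6 genes, 16.0 against 270 CPM for ENSCAFG00000032615 and 51.3 against 144 CPM for ENSCAFG00000000426. The other 29 tumours had medians of 131 and 96.3 CPM for these genes. Within tumours 37 to 46, ENSCAFG00000000561 and ENSCAFG00000032615 had r = 0.90, within tumours 27 to 36 r = 0.91, or 0.65 without tumour 35, and within the other 29 r = 0.57, or 0.36 without tumour 2. Tumour 37 was the highest of its run in both genes. It had 167 CPM of ENSCAFG00000032615, against 28.4 CPM in the next, tumour 39. For ENSCAFG00000000561 it had 9.31 CPM, against 6.17 CPM in tumour 40. The r of this run without tumour 37 was not computed. ENSCAFG00000031174 and ENSCAFG00000032615 had r = 0.25, 0.69 and 0.45 in the same runs. Without tumour 35 the second value was −0.06, so it rested on that library, and without tumour 2 the last was 0.24. The relation of ENSCAFG00000000426 with ENSCAFG00000032615 was 0.12, 0.11 (−0.12 without tumour 35) and 0.47 (0.30 without tumour 2).

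Over the 10 normals, where the genes were chosen for their spread, the 10 pairs of the 5 genes had r between 0.73 and 0.93 with a median of 0.87. Without normal 3 the range was −0.48 to 0.50 and the median 0.26. Ranks, which give one library less weight, had a median rho of 0.45 over the 10 normals. ENSCAFG00000012011 correlated with the other 5 at −0.29 to 0.12, and without normal 3 at −0.57 (ENSCAFG00000031174) to 0.60 (ENSCAFG00000029005).

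The other genes that were high in normal 3 were followed over the tumours in the same fits. Apart from the 5, 68 genes were at least 8-fold higher in normal 3. With ENSCAFG00000000426 as covariate, 51.5% of the 68 were called positive over the 49 tumours, against 3.37% of all genes. The share was 32.4% against 1.55% with ENSCAFG00000032615, 30.9% against 1.45% with ENSCAFG00000031174, 16.2% against 0.531% with ENSCAFG00000000561 and 16.2% against 0.738% with ENSCAFG00000029005. With ENSCAFG00000012011 it was 1.47% against 2.05%. Without tumours 2 and 35 the share was still 41.2% (against 2.8%) with ENSCAFG00000000426 and 20.6% (against 0.461%) with ENSCAFG00000032615. It was 4.41% with ENSCAFG00000031174 (against 0.784%), 1.47% with ENSCAFG00000029005 (against 0.869%) and 0% with ENSCAFG00000000561 (against 0.00769%).

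ENSCAFG00000012011 went with another set. Of the 27 other genes at least 8-fold higher in normal 1, 16 (59.3%) were called positive with it over the tumours, against 2.05% of all genes, and of the 33 of normal 10, 11 (33.3%). None of the 27 was called positive with any of the other 5 genes. The shares over all genes were 0.531% to 3.37% there, and with so few genes a count of 0 is near them. Of the 33, 2 were called positive with ENSCAFG00000029005 (6.06% against 0.738%) and 2 with ENSCAFG00000032615 (6.06% against 1.55%). With ENSCAFG00000000426 it was 1 (3.03% against 3.37%), and with ENSCAFG00000000561 and ENSCAFG00000031174 it was 0. Without tumours 2 and 35 the shares of 59.3% and 33.3% with ENSCAFG00000012011 were the same, against 1.93% of all genes. With fewer tumours fewer genes were called. Without tumours 37 to 46 they were 9 of 27 and 4 of 33, against 0.523% of all genes, and in the 29 tumours outside both runs 0 genes of the whole table were called positive with ENSCAFG00000012011. The median slope of the 27 genes on ENSCAFG00000012011 was 0.49 in 49 tumours, 0.47 without tumours 37 to 46 and 0.34 in the 29, against −0.002 over all genes in the last. That of the 33 was 0.29, 0.25 and 0.23.

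**Figure D5:**
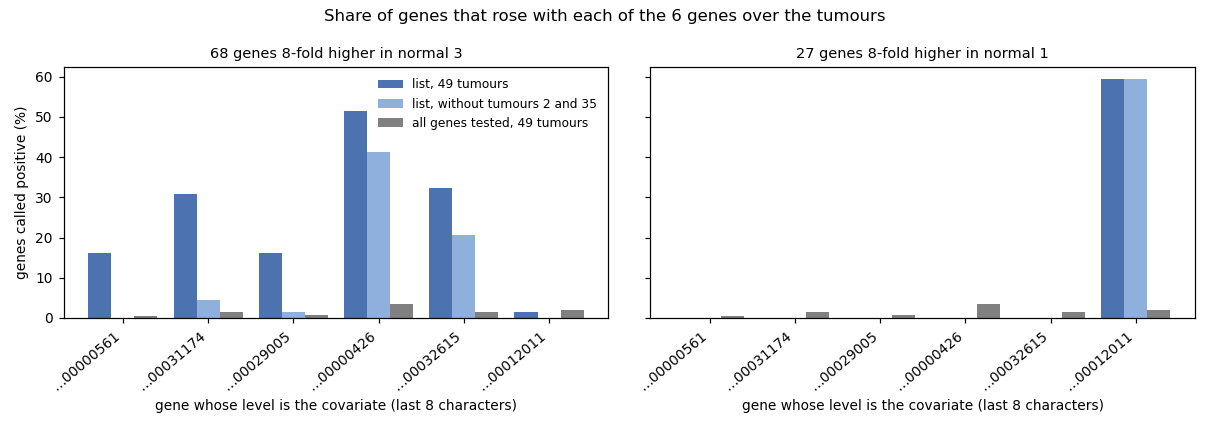
Percent of genes called positive over the tumours (vertical axis) with each of the 6 genes as covariate (horizontal axis), for the 68 other genes 8-fold higher in normal 3 (left) and the 27 of normal 1 (right); dark bars, 49 tumours; light bars, without tumours 2 and 35; grey bars, all genes tested. The left list reaches 51.5% with ENSCAFG00000000426 and 1.47% with ENSCAFG00000012011, and the right list 59.3% with ENSCAFG00000012011 alone.

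Each gene had a closest companion, taken as the gene tested with the highest r over the 49 tumours. For ENSCAFG00000032615 this was ENSCAFG00000029904, with r = 0.97 over tumours, 0.96 without tumours 2 and 35, and 0.98 over the 10 normals, or 0.92 without normal 3. Its level ran from 2.97 CPM to 18584 CPM in normal 3. That value lay above the one of ENSCAFG00000032615 in the same library, so it depends on the correction for UMI collisions still more. For ENSCAFG00000000426 it was ENSCAFG00000008723, with r = 0.82 over tumours, 0.84 over normals and 0.80 over normals without normal 3. Both relations thus kept most of their size without the libraries that stood apart. ENSCAFG00000031174 had ENSCAFG00000013735 (r = 0.71, and 0.58 without tumours 2 and 35) and ENSCAFG00000012011 had ENSCAFG00000011548 (0.66 and 0.66). ENSCAFG00000000561 had ENSCAFG00000029518 (0.76, and 0.50 without them) and ENSCAFG00000029005 had ENSCAFG00000002461 (0.65 and 0.32). Over the 10 normals r was 0.83 for ENSCAFG00000013735 and 0.58 for ENSCAFG00000011548, or 0.57 and 0.59 without normal 3. It was 0.90 for ENSCAFG00000029518 and 0.66 for ENSCAFG00000002461, or 0.26 and −0.08 without normal 3. The tumour medians of ENSCAFG00000011548 and ENSCAFG00000029518 were 0.73 and 1.63 CPM, against the 1.38 CPM that 3 counts are worth in the median library. Low values of these 2 thus cannot be ordered, and rho over tumours was 0.53 and 0.60. In the 47 tumours, the companion closest among the 6 was ENSCAFG00000032615 for each of the other 5. Genes outside the 6 with a higher r still numbered 2 for ENSCAFG00000000561, 34 for ENSCAFG00000031174, 123 for ENSCAFG00000029005, 352 for ENSCAFG00000000426 and 1639 for ENSCAFG00000012011. Points share libraries and their scaling, and these r are descriptions with no test.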

How the data were processed

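The deposited table holds estimated counts per Ensembl gene for 59 CEL-Seq2 libraries, as the authors made them. Per the submitters' processing notes, reads were aligned with BWA to CanFam3.1; for the counting program, annotation release and filters, the answer is not given in the sources used here. All values (100%) had the form of counts corrected for collisions among 4096 possible UMIs, which was read from the values. They are whole numbers, so count tests planned for plain counts were kept, with distinct UMIs as an alternative.

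The 6 genes, gene lists and runs of tumours were chosen with earlier results of these data known. Named beyond the 6 were each gene's highest correlate over tumours, and single genes at the limits of the choice. Marker lists planned by symbol for the zones, medulla and other tissues were not used, for want of symbols; 0 columns were left unassigned.

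Libraries were scaled by TMM after edgeR's filterByExpr by group. Tests used edgeR 4.0.16 (robust quasi-likelihood F test, two-sided; R 4.3.3) with Benjamini-Hochberg adjustment over all genes tested, and alternatives used limma 3.58.1 (voom) and DESeq2 1.42.0. Standard errors were derived from the coefficient and its F value. Log2 CPM used a prior count of 2. The scripts were tested on simulated data. Nothing states that each library is a different dog, so p-values measure only the spread between these libraries, which may be technical.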

Additional observations from a re-analysis of the deposited data

Results flagged for a closer look

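In normal 3, 5 of the 6 genes stood apart from the other 9 normals by a gap that took more of the whole range than 0.466, Dixon's 95% critical value for 10 samples. The genes were chosen for a wide spread over these same normals, so this is a description and not a test. Its log2 CPM was 8.45 for ENSCAFG00000000561, 8.72 for ENSCAFG00000031174, 11.58 for ENSCAFG00000029005, 11.69 for ENSCAFG00000000426 and 13.92 for ENSCAFG00000032615. The gap to the next normal took 0.756, 0.708, 0.68, 0.485 and 0.48 of the whole range in this order. For ENSCAFG00000012011 the share was 0.151, and no normal lay apart by this measure. In genes not chosen this way chance gives such a gap in about 1 of 20 groups. All 5 gaps come from 1 library.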

How the results depend on the processing

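All 6 genes were called lower in tumours by construction. The count was 2 with the log2 total as a covariate, where 0.277% of all genes were called lower, against 0.508% in the main fit. The other 4 were then at −1.60 to −2.86 (edgeR adjusted p 0.051 to 0.067). With distinct UMIs the count was 5 (ENSCAFG00000032615 lost, 0.528% of all genes). Without tumours 37 to 46 it was 5 (ENSCAFG00000012011 lost, −2.77, edgeR adjusted p = 0.0505, 0.429% of all genes). With DESeq2 it was 0 (0.987% of all genes). With each normal left out in turn it was 1 to 6 (0.213% to 1.04% of all genes), lowest without normal 3. The fold change of ENSCAFG00000031174 ran from −3.01 (without normal 10) to 0.20 (without normal 3) with each normal left out, and was 0.22 with DESeq2. Of 116 alternative fold changes, 89 kept direction and call, 25 lost the call and 2 reversed.

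The ordered pairs called over tumours, 15 in all tumours, numbered 7 without tumours 27 to 36, 5 without tumours 27 to 46 and 1 without tumours 2 and 35, an alternative added after the data were seen. The shares of all genes called positive in these 3 settings, given above, changed as well. The other 6 alternatives gave 11 to 16, with 0.292% to 5.55% of all genes called positive with the 5 genes as covariates. The median r over normals ran from 0.187 (without normal 3) to 0.871 with each normal left out. Libraries high in 2 or more genes, 7 at the 4-fold limit, numbered 26 at a limit of 1 log2 unit above the tumour median and 4 at 3.

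The normals and tumours 1 to 10 share numbers in their titles. Same-numbered libraries deviated together by more than 0.1 in 5 of 10 pairs (range −0.09 to 0.27), so the numbers were not taken to pair them. Over these 20 libraries, 4 of the 6 genes passed the filter, and 0 were called lower with a replicate block and 0 without one. Genes called lower over the table numbered 1 and 6. Depth limits ENSCAFG00000012011 and ENSCAFG00000031174, which had tumours at 0 counts.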
